A study of Mus musculus with 2 samples.

Results

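The nuclei described here are those named vascular endothelial cells (VEC) in 2 droplet-based single-nucleus ATAC-seq libraries of mouse primary motor cortex. They were taken as all rows with that name in the 2 deposited tables of nuclei. There were 392 such nuclei of 16314 in all, with 145 of 7440 in replicate 1 and 247 of 8874 in replicate 2. The other vascular names, pericytes (PER, 111 nuclei) and vascular and leptomeningeal cells (VLMC, 326 nuclei), stand beside them throughout.

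Both libraries came from the dissection MOp-2 of adult male C57BL/6J mice aged 56 to 63 days and were made on the 10x Genomics platform. The mice carried no transgene or treatment that the labels mention, and the libraries form 1 condition, so no test between conditions could be made. According to the methods, tissue was pooled from several animals for each replicate, although this is not stated separately for the 10x libraries. Nuclei are not replicates, and values are therefore given per library and then as the mean ± SD over 2 libraries.

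Endothelial cells line every vessel of the brain. In brain capillaries they are sealed to each other by tight junctions and carry transporters for nutrients and organic anions, and together they form the blood–brain barrier. Pericytes lie against their outer wall within a shared basement membrane, and vascular and leptomeningeal cells are the fibroblast-like cells of the meninges and of the space around larger vessels.

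The study's markers of VEC are 3 protein-coding genes, given here with their positions in mm10 from GENCODE M21. Cldn5, which encodes a claudin of the endothelial tight junction, spans 18776847 to 18778262 on the plus strand of chromosome 16. Flt1, which encodes a receptor for vascular endothelial growth factor, spans 147561604 to 147726011 on the minus strand of chromosome 5. Slco1a4, which encodes an organic anion transporter of the blood–brain barrier, spans 141805440 to 141856199 on the minus strand of chromosome 6. Accessibility at these genes was not analysed here, because the tables give fragment counts per nucleus and not per gene, so the name VEC was used as deposited and could not be checked against its markers.

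The libraries held 48179226 and 55337466 unique fragments, with medians of 6169.5 and 5457 per nucleus over all names. A unique fragment is a sequenced piece of accessible DNA that is left once copies of the same piece are removed, and its count is the depth of a nucleus. The lowest count was 1000 in both libraries, which is the study's filter. The mitochondrial count was 0 in every nucleus. Of 105 barcodes found in both libraries, 3 belonged to a VEC nucleus of replicate 1 and 3 to one of replicate 2, and 0 were VEC in both.

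The share of VEC among all nuclei was 1.95% for replicate 1, with a 95% interval of 1.65 to 2.29, and 2.78% for replicate 2, with an interval of 2.45 to 3.15 (mean 2.37% ± 0.590, SD, n = 2). These exact binomial intervals cover counting error only, and here they do not overlap. PER made up 0.739% and 0.631% of nuclei, and VLMC 1.92% and 2.06%, and for both names the intervals of the libraries overlap. Among the 3 vascular names, VEC took 42.3% (37.0 to 47.7) in replicate 1 and 50.8% (46.3 to 55.4) in replicate 2. These 2 intervals overlap, although the log2 ratio of the shares, replicate 2 over replicate 1, was 0.27 (0.05 to 0.48). VEC made up a larger share of the vascular nuclei in replicate 2, while the ratio of PER or VLMC to all nuclei differed by less than counting error.

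The depth of VEC nuclei was spread far more widely than that of any other name. In replicate 1 the lowest nucleus had 1062 unique fragments, the median was 4256 and the highest had 32492. In replicate 2 these values were 1005, 3252 and 48511. The highest count of either library over all 17 names belonged to a VEC nucleus, whereas the VEC median ranked 11 and 12 of 17.

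The 95th percentile of VEC depth was 16.8 times the 5th in replicate 1 and 15.4 times in replicate 2 (16.1 ± 1.01, SD, n = 2). The ratio was 3.50 and 3.51 in PER and 4.50 and 4.25 in VLMC. Among the 16 other names the widest were SSTGA, the Sst+ interneurons, at 5.69 in replicate 1 and NPGL, the near-projecting neurons, at 8.20 in replicate 2. On the log10 scale the SD of VEC depth was 0.364 and 0.367, beside 0.187 and 0.186 in PER, 0.190 and 0.184 in VLMC, and at most 0.227 and 0.276 among the other 16 names. The spread of VEC was therefore nearly the same in the 2 libraries, and the gap to the next name was larger than the difference between them.

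**Figure D1:**
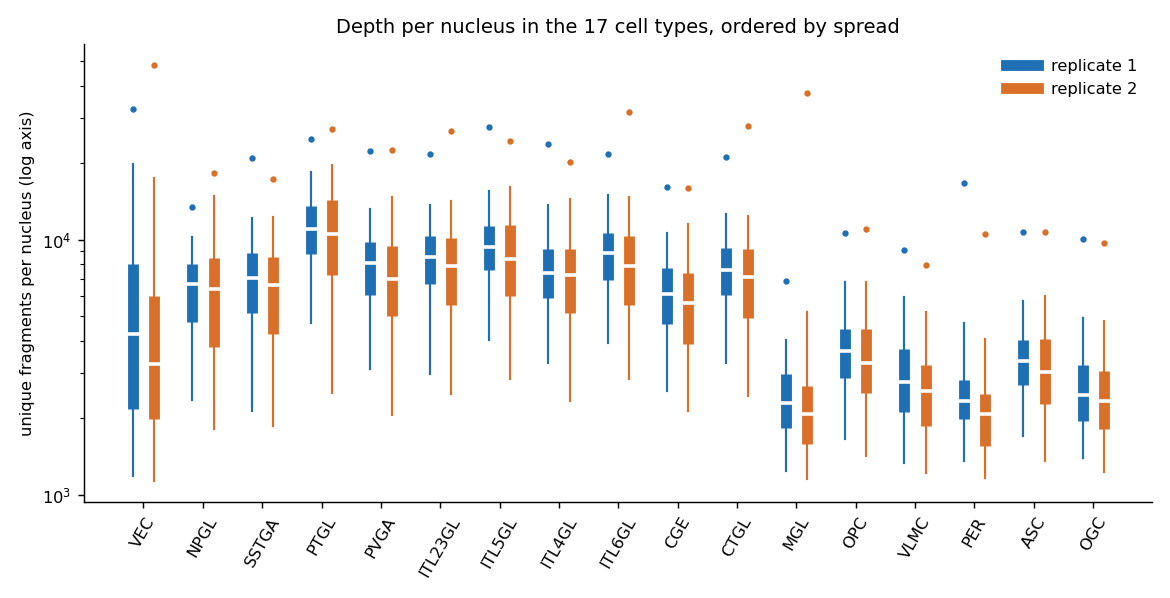
Unique fragments per nucleus (log axis) for each of the 17 names in replicates 1 and 2, with the names ordered by the SD of log10 fragments. White marks are medians, thick bars run from the first to the third quartile, thin lines from the 5th to the 95th percentile, and points are the highest nucleus; VEC spans 1181 to 19874 between those percentiles in replicate 1, the widest of all names.

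Like PER and VLMC, VEC took its largest share of all nuclei in the lowest depth class, and it was also present in the highest. Among nuclei with 1000 or more but under 2000 unique fragments, it made up 4.97% (34 of 684) in replicate 1 and 5.75% (63 of 1095) in replicate 2. PER made up 2.05% and 2.37% there, and VLMC 4.24% and 5.21%. Most nuclei of this class were non-neuronal, 568 in replicate 1 and 896 in replicate 2. Of these VEC made up 5.99% and 7.03%. From 5000 to under 10000 fragments VEC made up 1.40% (43 of 3076) and 1.47% (48 of 3265) of all nuclei. At 10000 fragments or more its share was 1.75% (1.10 to 2.64) and 2.13% (1.46 to 3.00), which lies within counting error of the class below.

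The share of VEC differed between the libraries beyond counting error in 1 depth class. From 2000 to under 5000 fragments VEC made up 1.90% (1.39 to 2.53) of nuclei in replicate 1 and 3.45% (2.83 to 4.17) in replicate 2, and these intervals do not overlap. In the other 3 depth classes the intervals of the libraries overlap. With at least 5000 fragments the log2 ratio of VEC shares, replicate 2 over replicate 1, was 0.16 (-0.31 to 0.63), on 65 and 80 VEC nuclei, beside 0.51 (0.22 to 0.81) in all nuclei. The interval at this depth includes both 0 and the value of all nuclei.

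Vascular nuclei of high depth were almost all named VEC. At 10000 fragments or more there were 22 VEC nuclei in replicate 1 and 32 in replicate 2, beside 1 PER nucleus in each library and 0 VLMC nuclei. A count of 0 allows a VLMC share of up to 0.293% of the 1258 nuclei of this depth in replicate 1 and up to 0.246% of the 1500 in replicate 2. VEC made up 81.5% of the 27 non-neuronal nuclei of this depth in replicate 1 and 65.3% of the 49 in replicate 2.

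VEC was also present among the very deepest nuclei. At 20000 fragments or more, a limit set after the values were seen, 8 of 24 nuclei were VEC in replicate 1 (33.3%, 15.6 to 55.3) and 10 of 65 in replicate 2 (15.4%, 7.63 to 26.5). VEC was the most frequent name there in replicate 1, ahead of PTGL, the pyramidal tract neurons, with 5 nuclei. In replicate 2 PTGL had 14 and ITL23GL, the intratelencephalic neurons of layer 2/3, had 11, both ahead of VEC. PTGL had the highest median depth of all names. Of the 10 deepest nuclei, 6 were VEC in replicate 1 and 7 in replicate 2. Doublets were removed only by the authors, and the part that 2 nuclei in 1 droplet may have in these counts was not tested.

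**Figure D2:**
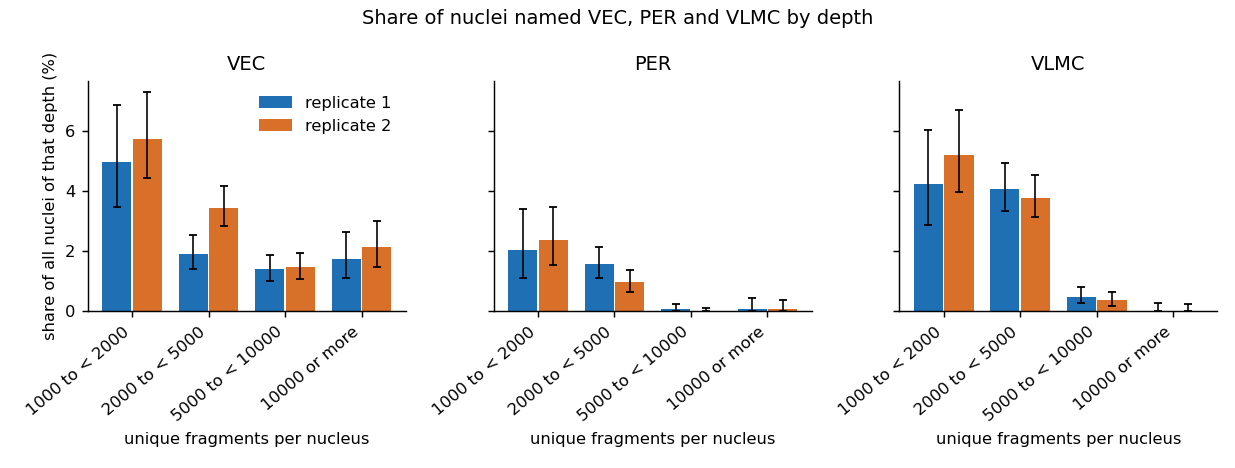
Share of all nuclei of a given depth (%) that were named VEC, PER or VLMC, in 4 classes of unique fragments per nucleus and for each replicate; error bars are exact 95% binomial intervals and cover counting error only. VEC keeps 1.75% and 2.13% of nuclei at 10000 fragments or more, where VLMC has 0 nuclei.

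VEC nuclei also had a low share of uniquely mapped fragments. This share is the number of uniquely mapped fragments over all fragments of a nucleus, in percent. The medians of VEC were 95.003% and 94.3% in replicates 1 and 2 (94.7% ± 0.485, SD, n = 2), beside 96.3% and 96.3% in PER and 95.6% and 95.6% in VLMC. Microglia (MGL) were the only name with a lower median in replicate 1, at 94.5%, and had the next lowest in replicate 2, at 94.4%.

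The low median came with a tail of poorly mapped nuclei. Under 90% uniquely mapped, a limit set after the values were seen, lay 11 VEC nuclei (7.59%, 3.85 to 13.2) in replicate 1 and 20 (8.10%, 5.02 to 12.2) in replicate 2. Of the nuclei of the other 16 names, 0.164% and 0.591% lay there, and PER and VLMC together gave 1 and 3 such nuclei. The lowest VEC nucleus was at 82.998% in replicate 1 and at 79.4% in replicate 2. VEC had the highest share of such nuclei among the 17 names in both libraries, although MGL reached 4.67% in replicate 2.

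Deeper VEC nuclei had a higher mapped share, a relation that was stronger than in any other name. Spearman's rho between the mapped share and unique fragments across VEC nuclei was 0.30 (145 nuclei) and 0.35 (247 nuclei), the highest of the 17 names in each library. It was -0.19 and -0.32 in PER and -0.02 and -0.01 in VLMC, and the highest values among the other names were 0.06 in SSTGA and -0.01 in VLMC. These are descriptions across nuclei of 1 library each, and the 2 measures share fragments, since unique fragments are drawn from those that mapped.

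The class medians did not follow 1 course in both libraries. In replicate 1 the median mapped share of VEC was 94.5%, 94.3%, 95.4% and 95.4% in the 4 rising classes of depth, and in replicate 2 it was 93.6%, 94.3%, 94.7% and 95.1%. Of the poorly mapped VEC nuclei, 10 of 11 and 17 of 20 had fewer than 5000 unique fragments. None of the 54 VEC nuclei with 10000 fragments or more was under 90%. Without the poorly mapped nuclei rho was 0.25 and 0.31, and it was 0.07 ± 0.13 (SD, n = 2) among VEC nuclei with at least 5000 fragments. A minimum depth narrows the range over which rho is taken.

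**Figure D3:**
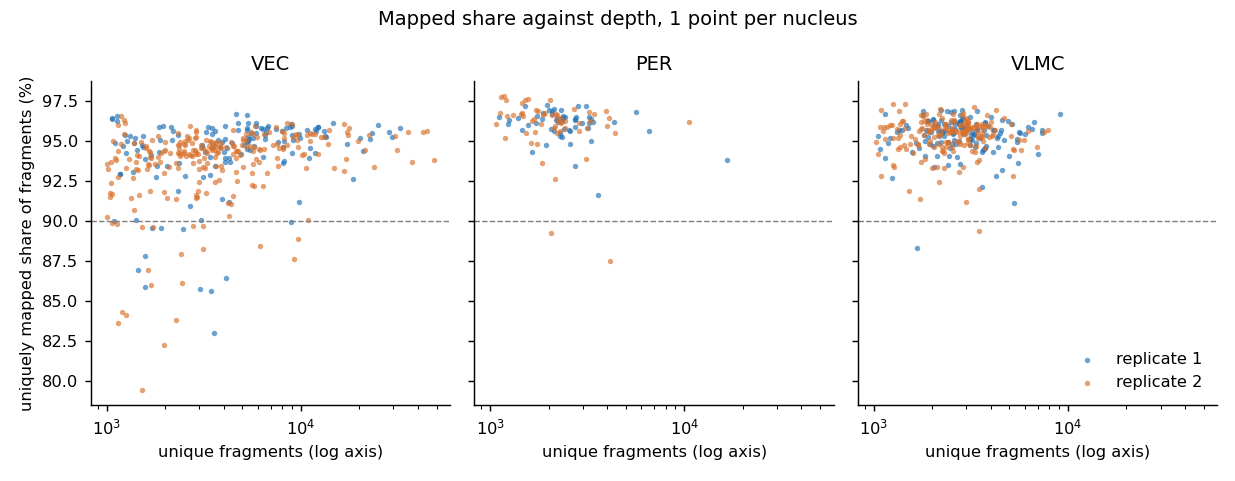
Uniquely mapped share of fragments (%) against unique fragments (log axis) for every VEC, PER and VLMC nucleus, coloured by replicate; the dashed line marks 90%. The VEC panel holds 31 nuclei below the line, most of them of low depth, where PER and VLMC together hold 4.

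In the UMAP embedding, a plane in which nuclei of like accessibility lie close together, VEC fell into 3 islands. An island joined nuclei within 0.5 units of each other and held at least 10 nuclei. Distances in this plane are in arbitrary units. Whether the deposited coordinates come from these 2 libraries alone or from an embedding with other nuclei was not stated in those sources that were used, and islands, distances and nearest names hold only for these coordinates and the nuclei of these libraries. The methods derive both names and embedding from accessibility, so the islands are no independent check of the names. PER and VLMC formed 1 island each.

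The largest VEC island held 356 nuclei (90.8%), of which 138 were from replicate 1 and 218 from replicate 2. The next held 15 nuclei and all were from replicate 2. The smallest held 11 nuclei, 4 from replicate 1 and 7 from replicate 2. A further 10 nuclei, 3 and 7, lay outside every island.

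These parts of VEC had different neighbours. For nuclei of the largest island the nearest nucleus of another name was PER for 151, CGE (interneurons derived from the caudal ganglionic eminence) for 134 and astrocytes (ASC) for 71, at distances of 1.88 to 3.07 units. For the 15 nuclei of replicate 2 it was always ASC, at 2.14 to 2.21 units. For the island of 11 nuclei it was always ITL23GL, at 3.17 to 3.30 units. The 10 nuclei outside every island lay within 0.0876 units of a nucleus of another name, 3 of them beside CTGL, the corticothalamic neurons, 3 beside ITL23GL, 2 beside MGL, and 2 beside NPGL or oligodendrocyte precursors. The VEC nucleus of replicate 2 with the lowest mapped share, 79.4%, was among these 10 nuclei. That of replicate 1 lay in the largest island.

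The counts of nearest other names also differed between the libraries. PER was nearest for 43 VEC nuclei (29.7%) of replicate 1 and 108 (43.7%) of replicate 2, and ASC for 42 (29.0%) and 44 (17.8%). CGE was nearest for 53 (36.6%) and 81 (32.8%). A group of 77 nuclei of replicate 2 alone, described below as patch 2, lay on the side of the largest island towards PER. Nearest names were not counted without this group, so a difference between the libraries in the remaining VEC nuclei was not tested. The change with depth was not alike in the 2 libraries. In replicate 1 CGE was nearest for 18 of 34 VEC nuclei under 2000 fragments and for 2 of 22 at 10000 or more, and ASC for 8 and 14 of these. In replicate 2 CGE was nearest for 26 of 63 and 11 of 32, and ASC for 13 and 8. In the other direction VEC was the nearest other name of all 111 PER nuclei, whereas for VLMC it was CTGL for 173, ASC for 114 and mature oligodendrocytes (OGC) for 39, and never VEC. Distances were also taken from the median position of the largest VEC island to that of each other name. By these PER was nearest at 3.13 units and VLMC came at position 7 of 16, at 9.51 units.

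Most VEC nuclei were surrounded by their own name. Of the 30 nearest nuclei, 96.1% in replicate 1 and 95.3% in replicate 2 were named VEC on average, and this share was 100% for 138 of 145 and 233 of 247 nuclei. Fewer than 50% of neighbours were VEC for the other 7 nuclei of replicate 1 and the other 14 of replicate 2. The island of 11 nuclei (4 and 7) by itself holds too few nuclei to make up 50% of 30 neighbours. Its low share thus follows from its size and does not show that these nuclei lay among other names. In PER and VLMC the share was 100% for every nucleus, but their single islands of 111 and 326 nuclei set no such limit.

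Within the largest island the libraries were unevenly placed. At a radius of 0.075 units, picked after the plot and several other radii had been viewed, VEC divided into 6 patches of at least 10 nuclei, here numbered by size, with 53 nuclei outside them. Patch 1 held 70 nuclei of replicate 1 and 35 of replicate 2, patch 3 held 19 and 44, patch 4 held 28 and 17, and patch 5 held 10 and 24. Patch 2, with 77 nuclei, and patch 6, with the 15 nuclei of the second island, held replicate 2 only. At this radius VEC was the only one of the 17 names with a patch of a single library. The radius was picked on VEC, however, and names of other size and density divided differently at it. PVGA, the Pvalb+ interneurons, gave 2 patches of 735 nuclei in all, and ITL23GL gave 25 of 2360. Whether other names would hold such patches at radii picked for them was not tested.

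Patch 2 as a patch of 1 library depends on that radius. At 0.05 units the patches of replicate 2 alone held 90 nuclei, and at 0.1 units patch 2 merged into a patch that also held nuclei of replicate 1. Without the 92 nuclei of patches 2 and 6, VEC made up 155 of 8782 nuclei in replicate 2 (1.76%), beside 1.95% in replicate 1. Leaving out nuclei chosen for being of replicate 2 can only lower that share.

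**Figure D4:**
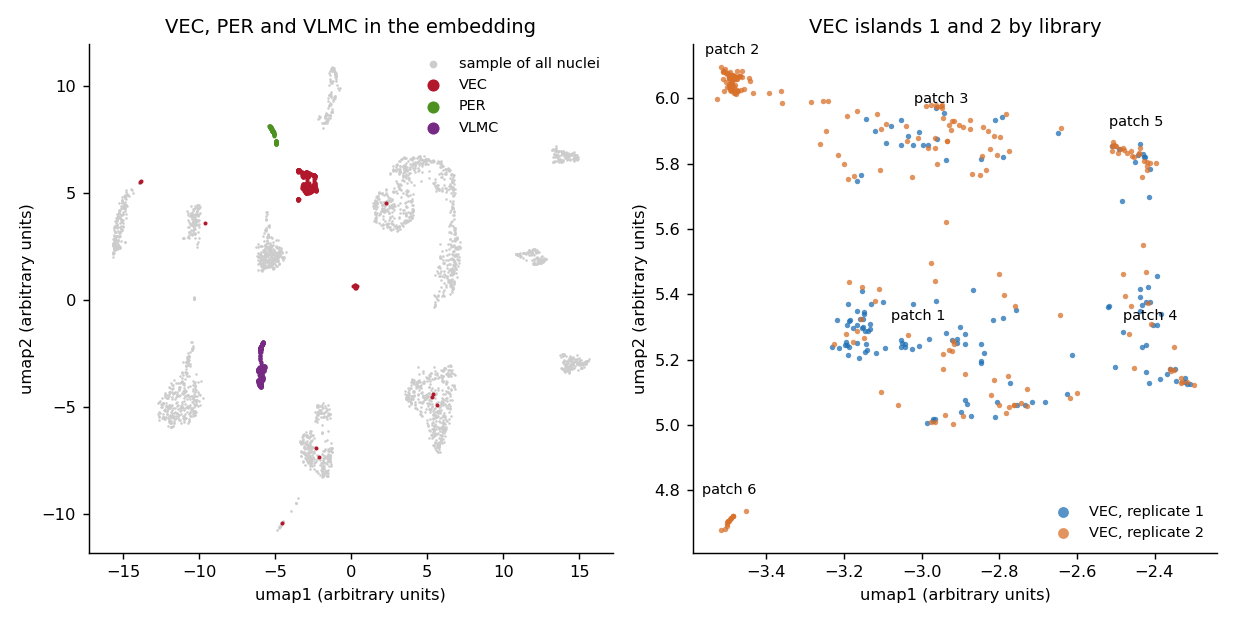
Position of VEC, PER and VLMC nuclei in the UMAP embedding (arbitrary units) over a sample of all nuclei in grey, and the 2 largest VEC islands enlarged and coloured by replicate, with the patch numbers. Patches 2 and 6 hold 77 and 15 nuclei, all of replicate 2, and a few VEC nuclei lie within groups of other names.

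The nuclei of patches 2 and 6 also differed from other VEC nuclei of replicate 2 in their fragment counts. These counts are not wholly separate from the embedding, since unique fragments enter both. The duplicate share of a nucleus is the percentage of its properly paired fragments that were copies of another fragment. Its median was 12.7% in patch 2, with quartiles of 12.3% and 13.4%, and 13.4% in patch 6. In the other 155 VEC nuclei of replicate 2 the median was 15.02%, with quartiles of 14.4% and 15.7%. This middle range does not overlap with that of patch 2. It does overlap with that of patch 6, which had quartiles of 12.7% and 14.5%. The medians of patches 1, 3, 4 and 5 in replicate 2 were 14.8%, 15.04%, 15.1% and 15.7%.

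The median of no other name in the same library was as low as that of patch 2. Patches of other names were not compared in this measure. Medians in replicate 2 ran from 14.3% in NPGL to 14.99% in PER over the other 16 names, with VLMC at 14.9%. In replicate 1 the VEC median was 14.0% and those of the other names ran from 13.4% to 14.2%, so patch 2 lay below the median of every name in either library. At or under 13.4%, the upper quartile of patch 2 itself, lay 9 of the 155 other VEC nuclei of replicate 2 (5.81%) and 9.24% of the 8627 nuclei of other names.

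The duplicate share of these patches was lower in each depth class. In replicate 2 the medians of patches 2 and 6 together and of the other VEC nuclei were 12.3% and 14.6% under 2000 fragments, 12.8% and 14.9% from 2000 to under 5000, 13.006% and 15.2% from 5000 to under 10000, and 14.6% and 15.3% at 10000 or more. The last class held only 7 nuclei of the patches. The median depth of both sets was similar, at 3108.5 fragments in these patches and 3399 in the other VEC nuclei of replicate 2. The other VEC nuclei were spread more widely, with an upper quartile of 7523.5 beside 4785 in these patches.

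In replicate 1, 2 VEC nuclei had duplicate shares of 0.319% and 2.12%, where the next lowest VEC nucleus was at 11.5%. Such nuclei also occurred in other names. In replicate 1, 1.38% of VEC nuclei lay under a duplicate share of 5%, beside at most 0.784% in another name (CGE). In replicate 2 it was 0% of VEC nuclei and up to 1.23% in another name (PTGL).

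Further counts set the nuclei of patches 2 and 6 apart. The properly paired share of uniquely mapped fragments had a median of 99.33% in the 92 nuclei and 99.62% in the other VEC nuclei of replicate 2. For the other 16 names in replicate 2 this median ran from 99.46% to 99.64%. Patch 2 alone, at 99.33%, lay below that range, whereas patch 6, at 99.47%, lay within it. The mapped share was also narrower, with an interquartile range of 0.621 percentage points in the 92 nuclei and 2.74 in the others, although its median of 94.5% was close to the 93.9% of the others. Only 2 of the 92 (2.17%, 0.264 to 7.63) were under 90% mapped, beside 18 of 155 (11.6%, 7.03 to 17.7). No second library of this condition held such patches, so the difference has no replicate, and the library and the state of these cells cannot be told apart.

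**Figure D5:**
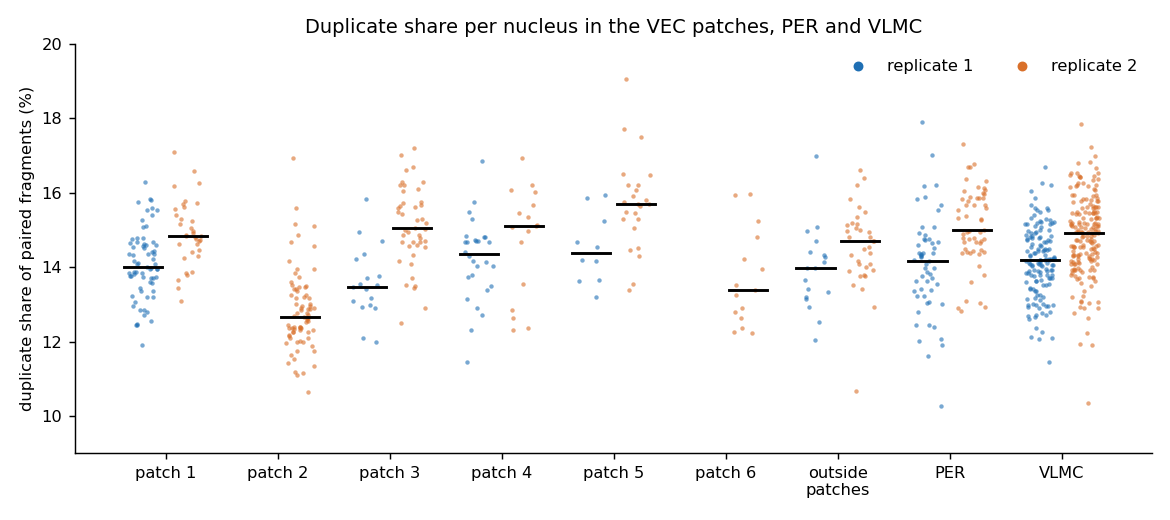
Duplicate share of properly paired fragments (%) per nucleus in the 6 VEC patches, in VEC nuclei outside them, and in PER and VLMC, coloured by replicate, with medians as black bars. The axis runs from 9% to 20% and leaves out 2 VEC nuclei of replicate 1, at 0.319% and 2.12%; patch 2 has a median of 12.7%, where the other patches of replicate 2 with both libraries lie between 14.8% and 15.7%.

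Depth and mapped share also varied among the patches that both libraries shared. In replicate 1 the median depth was 6064.5 fragments in patch 1 and 1871 in patch 5, and in replicate 2 the deepest patch by median was patch 3, at 4840.5, and the shallowest was patch 4, at 1667. The order of the patches by depth therefore differed between the libraries. Over these 4 patches, differences between patches took up 20.5% of the variance of log10 depth in replicate 1 (127 nuclei) and 12.0% in replicate 2 (120 nuclei), so most of the spread of depth in them lay within patches.

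Among the patches, poorly mapped nuclei were most frequent in patch 1. It held 8 of the 11 VEC nuclei under 90% in replicate 1 and 7 of the 20 in replicate 2, among 70 and 35 nuclei of the patch. As shares of the patch these have wide intervals, of 5.07% to 21.3% and 8.44% to 36.9%. Of the VEC nuclei outside all patches, 1 of 18 in replicate 1 and 6 of 35 in replicate 2 were poorly mapped, so the tail was not confined to patch 1. The poorly mapped VEC nuclei had median depths of 2483 and 1853 unique fragments, against 4679.5 and 3464 in the other VEC nuclei.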

How the data were processed

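Single-nucleus ATAC-seq of 2 libraries of 1 condition was used. The authors deposited a table per library with whole-number counts of fragments per nucleus (all, uniquely mapped, properly paired, unique after removal of copies, and mitochondrial). They also deposited log10 values of the unique count, UMAP coordinates and a name. Meanings of the counts follow SnapTools. The methods describe alignment with bwa to mm10, after which fragments were filtered and stripped of duplicates with SnapTools, and nuclei were filtered on depth and TSS enrichment. BWA, Cell Ranger ATAC, mm10 and GRCm38 are listed in the submitters' processing notes, while their versions, and what Cell Ranger ATAC was used for, were not given in the sources used here. The depth filter leaves out shallow nuclei and so narrows the low end of depth. Doublets were taken out by the authors with a modified Scrublet score, which can also remove deep nuclei.

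Shares have exact Clopper-Pearson 95% intervals, and log2 ratios log-method intervals, which cover counting error only. Islands and patches were found with DBSCAN (at least 5 nuclei within 0.5 or 0.075 units, and at least 10 nuclei in all). The functions were tested on simulated data. Tables were handled with pandas 2.3.3 and numpy 2.4.6 in Python 3.11.15. Neighbours and DBSCAN came from scikit-learn 1.9.0, intervals and rho from scipy 1.17.1, and figures from matplotlib 3.10.9. The seed was 1. Only the study's markers are named as genes. PER and VLMC are described beside VEC, and other names only as most frequent nearest names or as extremes of the 17 names. Names met by the 10 VEC nuclei outside islands were given after their values were seen. Members, lists and measures were chosen with earlier results of these data known. The patch radius, the duplicate and paired shares, the limits of 90% and 20000, and the 4 depth classes were chosen after values and other settings had been viewed. As alternatives, nuclei were held to at least 2000 or 5000 fragments or the deepest 5% were left out. Further ones were each library alone, pooled nuclei, total fragments as depth, sums, 10 or 100 neighbours, and other radii or island settings.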

Additional observations from a re-analysis of the deposited data

How the results depend on the processing

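No paired analysis was possible because both libraries are of 1 condition. Of the values under alternatives, 58 moved by no more than a limit, 24 moved further and 0 changed sign. The limit was the SD of the 2 libraries. For island shares and the log2 ratio it was the counting interval, and for numbers and the duplicate share 1.5 times. A library alone always lies within the SD of 2 libraries from their mean. Its shares of nuclei, depth, mapped share and rho thus could not move further. Most values cannot be negative, so their sign could not change. The log2 ratio of VEC shares without the patches of replicate 2 alone, not counted here, was -0.14 (-0.47 to 0.18), beside 0.51 in all nuclei. Leaving out nuclei chosen for being of replicate 2 can only lower it. With at least 2000 unique fragments the VEC median depth was 4940 and the SD of log10 depth 0.294. With at least 5000, VEC made up 1.59% of nuclei, 25.7% of non-neuronal and 82.2% of vascular nuclei, the median depth was 8570, the SD 0.235, rho with mapped share 0.073 and the log2 ratio 0.16. A minimum cuts the range of depth by construction. Without the deepest 5% of nuclei the SD was 0.298.

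The share of 30 neighbours named VEC was 97.6% with 10 and 95.04% with 100. With a single library, it ran from 94.9% to 95.4%, islands from 1 to 2 and the largest island's share from 88.3% to 95.2%. That share was 94.6% at radius 1. At radii of 0.05, 0.075 and 0.1, added after seeing the data, there were 10, 6 and 6 islands, the largest with 19.1%, 26.8% and 38.5% of nuclei.

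Also added later, leaving out the patches of replicate 2 alone gave an SD of 0.380, and leaving out poorly mapped nuclei a rho of 0.28. The duplicate share of those patches minus that of other VEC nuclei of replicate 2 was -2.24 percentage points, and -1.61 with patches of at least 80% replicate 2 at radius 0.1, -1.96 with at least 5000 fragments and -1.70 from sums. Small numbers of VEC nuclei limit all patch values.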
